A study of Mus musculus with 4 samples.

Results

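Interferon-responding T cells were T cells that carried several transcripts switched on by interferon at the same time. Among cells with 200 to 7000 genes, at most 5% mitochondrial UMIs and a UMI of Cd3d, Cd3e or Cd3g, they were selected on measured values, as those with UMIs (unique molecular identifiers, 1 per captured RNA molecule) of at least 3 of the 8 genes Ifit1, Ifit3, Ifit3b, Rsad2, Mx1, Oasl2, Cmpk2 and Rtp4. The rule kept 215 of 4157 T cells, from 4801 cell barcodes in all. The study profiled T cells sorted from the meninges, the membranes around the brain, and from the choroid plexus, the tissue that makes cerebrospinal fluid, by single-cell RNA sequencing. The mice were female C57BL/6 animals without a reported allele or treatment, 10 weeks old in the young groups and 18 months old in the aged groups. Cells of 5 mice were pooled into each of the 4 libraries, so there was 1 library per group and no p-value. Comparisons between ages or tissues had no replicate. Those with other T cells were made within each of the 4 libraries, which came from different conditions. All intervals below are 95% intervals for counting error only (Clopper-Pearson for shares, exact Poisson for levels), which do not cover the spread between mice. Those for levels, taken from UMIs summed over cells, also leave out the spread between cells. They can be too narrow where few cells were summed, also where they are said not to overlap. Cells were taken by an antibody sort for CD4 and CD8 T cells, so the shares are shares of sorted cells.

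The young meninges library held 32 interferon-responding cells among 1023 T cells, and the young choroid plexus library 26 among 627. The aged meninges library held 109 among 1408, and the aged choroid plexus library 48 among 1099. The cells carried 136455, 132529, 341850 and 178989 UMIs in all, in the order young then aged with the meninges before the choroid plexus at each age, which is kept throughout. Their median UMIs per cell were 3683, 4110, 2511 and 3187, against 3196, 2974, 2285 and 2838 in the other T cells of the same libraries. A deeper cell has more chances to show 3 genes, and the interferon-responding cells were deeper than the others in all 4 libraries. Of the barcodes, 8 occurred in more than 1 library, and none of these belonged to an interferon-responding cell. T-cell receptor beta segments (Trbv genes), which the rule did not use, were found in 31 of the 32, 24 of the 26, 97 of the 109 and 38 of the 48 interferon-responding cells. The summed level of 13 T-cell genes, which include the Cd3 genes that chose all T cells, was 7533.6, 6889.1, 8091.3 and 7559.1 CPM (the UMIs of a gene scaled by all UMIs of the same cells), against 7390, 6996.9, 8094 and 7662.2 CPM in the other T cells.

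Type I interferons are secreted when cells sense viral or self nucleic acid. They bind the receptor pair Ifnar1 and Ifnar2 and act through the kinases Jak1 and Tyk2 on the interferon-stimulated response element (ISRE) in promoters. Interferon gamma, made by T cells themselves, has its own receptor and acts mainly on gamma-activated sites (GAS). The genes switched on in this way encode sensors of foreign RNA and DNA, blockers of viral replication and factors that feed the response back.

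The 8 genes of the rule encode such proteins. Ifit1, Ifit3 and Ifit3b encode tetratricopeptide proteins that bind viral RNA or the proteins that do so. Rsad2 (viperin) and Cmpk2 make altered or activated nucleotides, and Mx1 is a dynamin-like GTPase that blocks viral replication, whose gene is known to be disrupted in C57BL/6 mice. Oasl2 belongs to the 2′-5′ oligoadenylate synthetase family, and Rtp4 is a receptor transporter protein induced by interferon. In the GENCODE vM21 annotation of GRCm38, Ifit3 (chr19:34583531-34588731), Ifit3b (chr19:34607970-34613401) and Ifit1 (chr19:34640871-34650009) lie close together on the + strand. Rsad2 (chr12:26442746-26456452, - strand) and Cmpk2 (chr12:26469204-26479837, + strand) are neighbours that point away from each other.

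The promoters show what several of these genes share. The ISRE core was searched as GAAANNGAA and as its reverse complement TTCNNTTTC in the 300-base RefSeq promoters of GRCm38.p6, which run from 250 bases before to 50 bases after a start site. The stretches of 75 bases below are read 5′ to 3′ on the gene's strand and lie at chr19:34640768-34640842 (+) for Ifit1, chr19:34583362-34583436 (+) for Ifit3, chr19:34607758-34607832 (+) for Ifit3b, chr12:26456509-26456583 (-) for Rsad2 and chr4:156200834-156200908 (-) for Isg15, a gene outside the rule described further on. Capitals mark the ISRE core matches, which overlap in Ifit1 and Isg15.
Ifit1: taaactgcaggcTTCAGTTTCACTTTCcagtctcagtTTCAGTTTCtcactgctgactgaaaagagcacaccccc
Ifit3: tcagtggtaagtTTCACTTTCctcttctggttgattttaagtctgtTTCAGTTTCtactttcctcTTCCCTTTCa
Ifit3b: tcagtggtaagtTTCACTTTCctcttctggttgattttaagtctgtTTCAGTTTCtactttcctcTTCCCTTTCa
Rsad2: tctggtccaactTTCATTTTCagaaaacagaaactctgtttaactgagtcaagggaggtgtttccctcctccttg
Isg15: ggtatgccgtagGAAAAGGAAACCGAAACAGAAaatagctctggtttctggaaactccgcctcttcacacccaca

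Ifit1, Ifit3, Ifit3b and Isg15 had 3 matches each and Rsad2 had 1. The stretches of Ifit3 and Ifit3b were identical over all 75 bases, whereas their whole promoters were equal at 201 of 268 aligned bases (75%). Reads of these related genes may have been split between them. The core was in the promoters of 4 of the 6 rule genes that the table held, and not in those of Oasl2 and Cmpk2. Mx1 and Rtp4 were not in the table. Across all genes of the table, 9.76% of 27025 had a promoter with the core.

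The number of rule genes per cell fell off steeply. Of the T cells, 3032 had UMIs of none of the 8 genes, 710 of 1, 200 of 2, 84 of 3, 53 of 4, 34 of 5, 22 of 6, 20 of 7 and 2 of all 8. The 84 cells with 3 genes lay just inside the threshold and the 200 cells with 2 just outside it. Ifit3 was found in 82.3% of interferon-responding cells, Rtp4 in 81.4% and Ifit1 in 77.2%. Ifit3b (43.7%), Cmpk2 (40%), Rsad2 (37.2%), Mx1 (35.8%) and Oasl2 (31.2%) were each found in fewer. Rtp4 was also the rule gene most often seen in the other T cells, in 13.1, 13.3, 12.9 and 11.4% of them. Ifit1 was found in 4.14, 4.33, 4.31 and 3.14% of them, and Ifit3 in 3.33, 1.83, 5.7 and 3.71%. UMIs of both Ifit3 and Ifit3b were found in 86 cells, of Ifit3 alone in 91 and of Ifit3b alone in 8. Counting these copies as 1 gene left 204 cells.

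**Figure D1:**
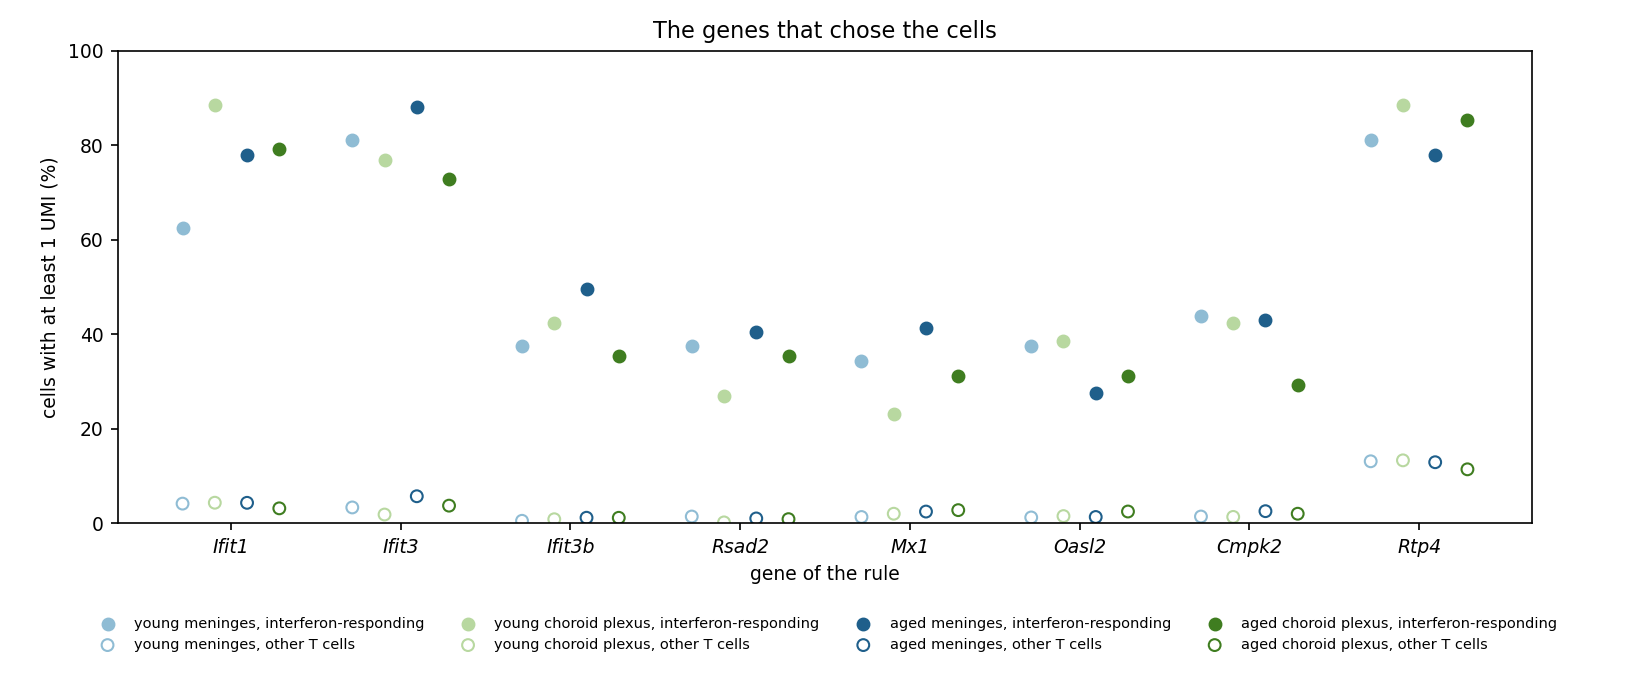
Share of cells with at least 1 UMI (%, y axis) for each of the 8 genes of the rule (x axis), in interferon-responding cells (filled points) and other T cells (open points) of each library (colours). Ifit1, Ifit3 and Rtp4 were found in 62.5 to 88.5% of the interferon-responding cells, and the other genes in fewer than 50% of them in every library.

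Interferon-responding cells were most frequent in the aged meninges. They made up 3.13% (2.15 to 4.39) of T cells in the young meninges, 4.15% (2.73 to 6.02) in the young choroid plexus, 7.74% (6.4 to 9.26) in the aged meninges and 4.37% (3.24 to 5.75) in the aged choroid plexus. The aged meninges stood above each of the other libraries with no overlap of intervals, and those 3 overlapped one another. The share was 4.61 percentage points higher in the aged than in the young meninges (2.82 to 6.38, Newcombe's interval). In the choroid plexus the difference was 0.221 points (-1.92 to 2.11). With 1 library per group, age cannot be told apart from the library in either difference.

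The shares were also counted at equal depth. With each cell thinned to 1000 UMIs, which left out 8, 6, 38 and 21 shallower T cells, the shares were 0.887% (0.406 to 1.68), 1.13% (0.454 to 2.31), 3.94% (2.97 to 5.11) and 1.21% (0.644 to 2.05). The aged minus young difference was then 3.05 points in the meninges (1.85 to 4.29) and 0.0787 points in the choroid plexus (-1.2 to 1.1). At 2000 UMIs, which left out 81, 71, 531 and 235 T cells, the shares were 2.65, 2.34, 6.61 and 2.78%. The aged meninges was the highest library at each depth.

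CD4 cells (those with Cd4 UMIs but without Cd8a or Cd8b1), CD8 cells (the reverse) and cells with neither all took part. Cells with neither had the lowest median UMIs of the classes in every library. Since the sort took CD4 and CD8 T cells, they can be such cells whose Cd4 or Cd8 transcripts were missed. They are thus not shown to be a separate kind of T cell. Of the 215 cells, 49 were CD4 (22.8%), 80 were CD8 (37.2%), 76 had neither (35.3%) and 10 had both (4.65%). Among all T cells these classes made up 24.5, 28.5, 44.6 and 2.43%. Among CD4 cells the interferon-responding share was 3.46% (1.59 to 6.47), 1.81% (0.374 to 5.19), 8.01% (5.43 to 11.3) and 3.46% (1.51 to 6.71). Among CD8 cells it was 5% (2.69 to 8.4), 4.79% (2.09 to 9.22), 12.5% (8.83 to 16.9) and 5.04% (3.26 to 7.41). Among cells with neither it was 2.06% (0.993 to 3.76), 4% (2.01 to 7.04), 5.58% (4.03 to 7.49) and 3.91% (2.15 to 6.47). The aged meninges was the highest library in all 3 classes, by 4.55 (0.735 to 8.19), 7.46 (2.7 to 12.3) and 3.52 (1.29 to 5.64) points over the young meninges. At 1000 UMIs these differences were 3.06 (0.316 to 5.79), 4.32 (1.27 to 7.77) and 2.47 points (0.88 to 4.07), and at 2000 UMIs 3.37 (-0.467 to 7.58), 4.12 (-0.318 to 8.9) and 4.1 points (1.56 to 6.95), where the intervals for CD4 and CD8 cells held 0. The intervals of the choroid plexus differences all held 0. CD8 cells were deeper than cells with neither, with medians of 3664.5, 3460, 2811 and 3124.5 UMIs against 2996, 2823, 2079 and 2357.5. With each cell thinned to 1000 UMIs, the share of CD8 cells was 1.15, 0.61, 5.47 and 1.07% and that of cells with neither 0.628, 1.47, 3.1 and 2.03%, with CD8 the lower in both choroid plexus libraries, from 1 and 5 CD8 cells. At 2000 UMIs the shares were 4.37, 3.23, 8.48 and 2.91% against 1.64, 2.17, 5.74 and 2.97%. The intervals of the classes overlapped within each library at both depths. Cells in which Cd4 and Cd8 genes were found together were the deepest class in 3 of the 4 libraries and can be doublets, and their shares, from few cells, were 0 of 18, 4 of 19 (21.1%, 6.05 to 45.6), 4 of 30 (13.3%, 3.76 to 30.7) and 2 of 34 (5.88%, 0.72 to 19.7). Leaving them out moved none of the shares of all T cells outside its interval.

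**Figure D2:**
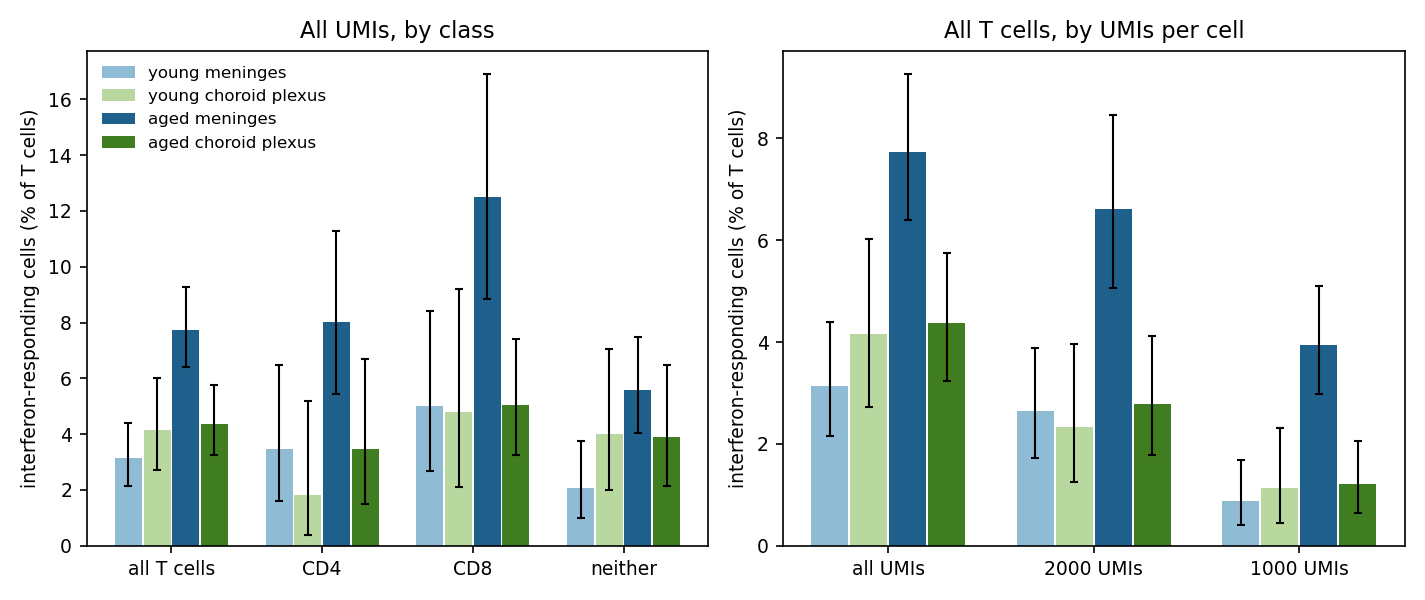
Interferon-responding cells as a percentage of T cells (y axes) in each library (colours), with 95% Clopper-Pearson intervals. The left panel shows all T cells and the CD4, CD8 and neither classes, and the right panel repeats the share of all T cells after thinning each cell. The aged meninges was highest in every group of bars, at 7.74% of all T cells and 12.5% of CD8 cells.

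The T-cell receptor genes of these cells were varied. Among the 31, 24, 97 and 38 interferon-responding cells with a UMI of a Trbv gene there were 14, 13, 20 and 16 different Trbv genes. The most frequent were Trbv13-2 (19.4%), Trbv31 (16.7%), Trbv13-2 (12.4%) and Trbv1 (10.5%). In the other T cells they were Trbv13-2 (11.3%), Trbv16 (9.45%), Trbv13-2 (11.9%) and Trbv13-2 (12.9%), so that the leading gene was shared in the meninges libraries and not in those of the choroid plexus.

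Interferon-stimulated genes outside the rule were followed over 4 lists of 59 genes in all (Mx2, 1 of them, was not analysed here), for sensors, effectors, ubiquitin-like modification and transcription factors. Their summed level was higher in cells with more of the rule genes, though not at each step. It was 3614.8, 3856.9, 5050 and 4501.6 CPM in cells with none of the 8 genes, and 10335.6, 8375.8, 12063.3 and 8070.9 CPM in cells with 2. It was 12065.1, 8489.1, 15269.7 and 12080.9 CPM in cells with 3, 16100.2, 9104.4, 22027.6 and 12017.3 CPM in cells with 4, and 24521.2, 26517.3, 25659.8 and 22408 CPM in cells with 5 or more. From 3 to 4 genes the level did not differ beyond counting error in either choroid plexus library, although the young choroid plexus level at 4 genes rested on 2 cells. In the young choroid plexus the cells with 3 rule genes and those with 2 had overlapping intervals (7867.4 to 9146.8 and 7810.9 to 8970.8 CPM). In the other libraries the step from 2 to 3 was larger than the counting error, and the cells with 2 already stood above those with none in every library. At 5 or more genes the libraries lay closer together than at 3.

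**Figure D3:**
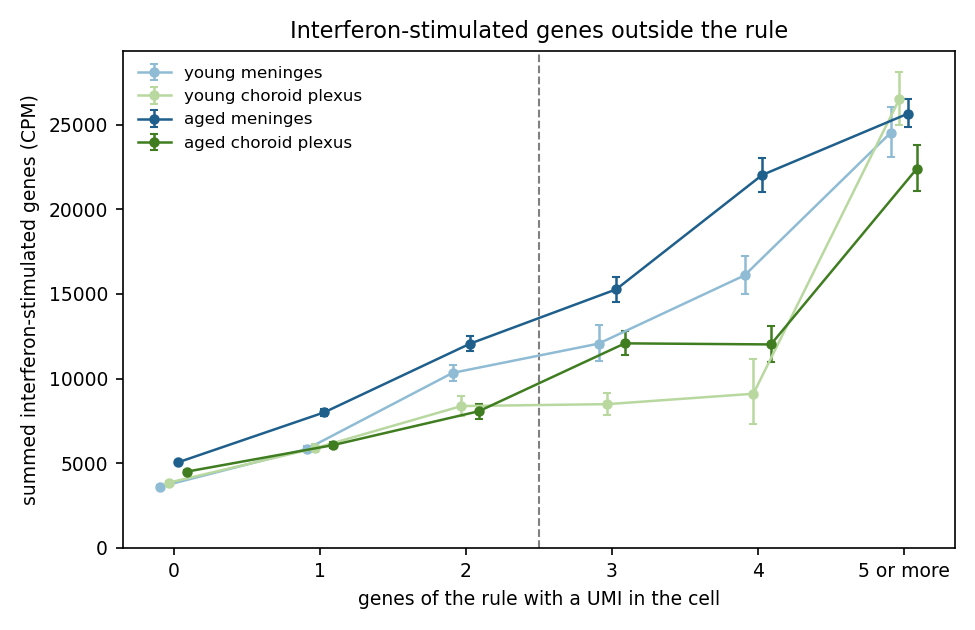
Summed level of the 4 lists of interferon-stimulated genes outside the rule (CPM, y axis) against the number of rule genes with a UMI in the cell (x axis), per library (colours), with 95% Poisson intervals; the dashed line marks the threshold of 3 genes. The level lay at 3614.8 to 5050 CPM at 0 genes and at 22408 to 26517.3 CPM at 5 or more.

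Gene by gene, a difference was called past the rule of size where the log2 ratio of CPM (after adding 10 CPM, which understates the change of low genes) was at least 1 in size, the Poisson intervals did not overlap and at least 10 UMIs were seen or expected. Against the other T cells of the same library, 61 of 2137 genes outside the rule measured in at least 3 libraries were higher in at least 3 libraries (2.85%), and 0 were lower (0%). Since the cells were chosen for rule genes in this same contrast, these values describe the cells and support nothing. Of the 61 genes, 47 were in the interferon lists. The other 14 held further genes of interferon-inducible families (Ifit1bl1, Ifi214, Ifi47, Trim30d, Trim34a, Trim12c), along with Pml, Trafd1, Daxx, Jaml, Samd9l, Helz2, Mitd1 and 1600014C10Rik.

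Among the higher genes outside the rule, the widest difference was that of Isg15, in the ubiquitin-like list. Isg15, a ubiquitin-like protein that is joined to other proteins during the response (chr4:156199424-156200818), stood at 1414.4, 1041.3, 1661.5 and 1022.4 CPM in interferon-responding cells and at 59.8, 41.1, 107.8 and 52.9 CPM in other T cells. Its mean log2 ratio over the 4 libraries was 4.14 ± 0.26 (SD over 4 libraries of different conditions). Usp18, which removes Isg15 from proteins and restrains the type I receptor, stood at 139.2, 83, 207.7 and 83.8 CPM against 9.57, 8.43, 8.4 and 8 CPM, a log2 ratio of 2.80 ± 0.58. Both genes were separated from the other T cells in all 4 libraries. Rnf213, a large ubiquitin ligase, had a log2 ratio of 2.03 ± 0.14 and Herc6, an Isg15 ligase, of 1.81 ± 0.22. All 4 measured genes of the 6 in this list were higher, with a median log2 ratio of 2.41 beside 0 over all genes measured.

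Among transcription factors, Irf7, which amplifies the response, stood at 600.9, 362.2, 573.4 and 301.7 CPM against 89, 56.5, 114.5 and 57.1 CPM. Its log2 ratio was 2.39 ± 0.20. Irf9 (0.93 ± 0.43) and Nmi (0.51 ± 0.47), of the same list, were not past the rule in 3 libraries. The median log2 ratio of the 4 measured factors was 1.36.

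All 7 measured sensors of the 12 listed were higher, with a median log2 ratio of 1.94. Zbp1, which binds nucleic acid in the Z form, had 549.6, 339.5, 494.4 and 301.7 CPM against 75.1, 66.9, 86.3 and 76.3 CPM (2.29 ± 0.36). Oas3 (2.26 ± 0.51) and Oas1a (1.94 ± 0.56) make the 2′-5′ oligoadenylates that activate RNase L. Eif2ak2 (2.0 ± 0.29) is the double-stranded RNA-dependent kinase, and Ifih1 (1.89 ± 0.25) and Ddx58 (1.45 ± 0.30) are the cytosolic RNA sensors MDA5 and RIG-I.

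Of the 36 effector genes 25 were measured and 23 were higher, with a median of 1.68. Bst2 (tetherin), which holds budding virus at the cell surface, had 732.8, 377.3, 1061.9 and 553.1 CPM against 128.5, 119.5, 189.2 and 144.9 CPM (2.07 ± 0.42). Isg20, an exonuclease that degrades RNA, had a ratio of 2.53 ± 0.77, lowest in the aged choroid plexus at 1.43. Slfn5, of the schlafen family, had 2.46 ± 0.38, Trim30a 1.98 ± 0.24, Phf11b 1.97 ± 0.38, Ifi213, of the interferon-inducible DNA-binding family, 1.90 ± 0.43, and Lgals3bp, a secreted glycoprotein, 1.85 ± 0.24. Ifi27l2a was the most abundant gene of the lists, at 4213.8, 3116.3, 5262.5 and 2977.8 CPM against 1191.9, 1292.8, 1784.6 and 1206 CPM. It was thus also plain in T cells outside the rule, and its ratio was 1.48 ± 0.26.

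**Figure D4:**
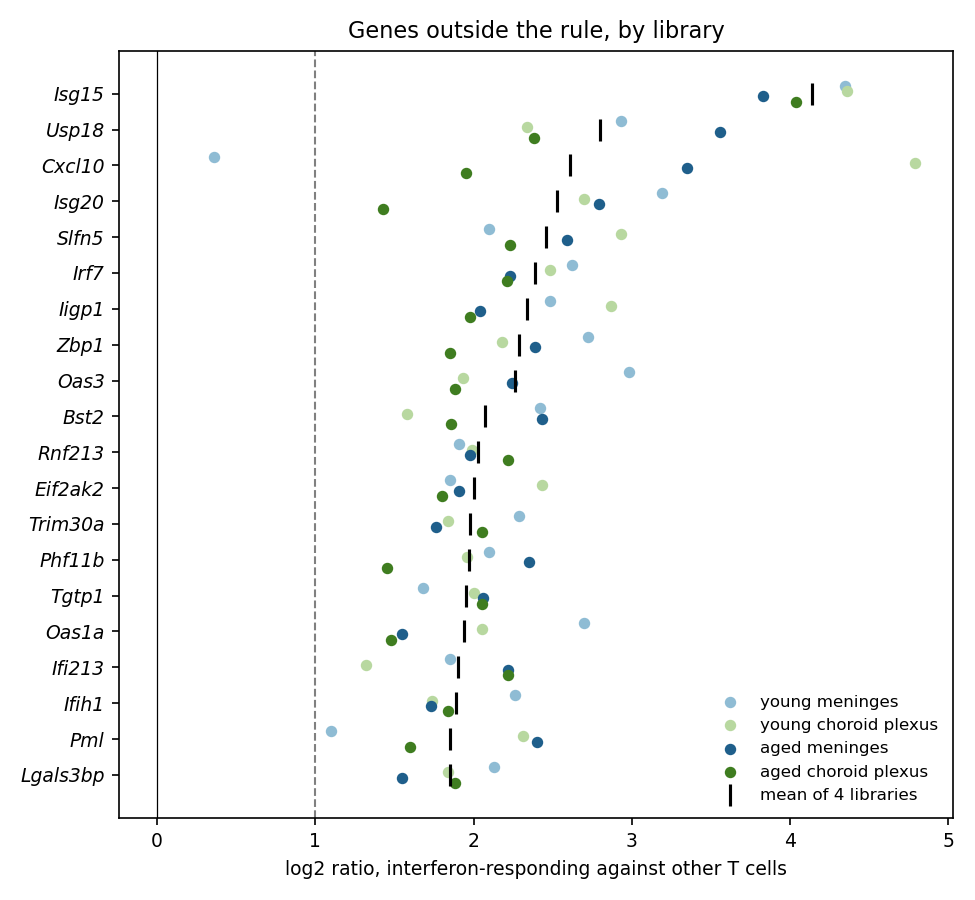
Log2 ratio of CPM (after adding 10 CPM, x axis) in interferon-responding against other T cells for the 20 genes outside the rule with the highest mean ratio (y axis), per library (colours), with the mean of 4 libraries as a black bar. The dashed line marks the ratio of 1. Isg15 led at 4.14, and Cxcl10 differed most between libraries.

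Over all 4 lists, 36 of 40 measured genes were higher and none lower, with a median log2 ratio of 1.80. For 31 of these 40 genes the minimum of UMIs was reached only through the interferon-responding cells in at least 1 library, which favours genes that are higher in them, so these counts and medians support nothing. Among genes measured by the level of the other T cells alone, 10 of 13 list genes were higher, against 13 of 1668 genes of all kinds (0.779%).

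Guanylate-binding proteins (Gbp) and immunity-related GTPases attack vacuoles of pathogens and are known mainly as targets of interferon gamma. In the list of 21 genes that lean towards interferon gamma, 14 were measured and 11 were higher, with a median of 1.62. For 13 of the 14 the minimum of UMIs was reached only through the interferon-responding cells in at least 1 library. Among the 3 measured by the level of the other T cells alone (Igtp, Irf1 and Socs1), 1 was higher, Igtp. Gbp9 had a ratio of 1.84 ± 0.28, Gbp2 1.78 ± 0.66, Igtp 1.68 ± 0.16, Tgtp1 1.95 ± 0.18 and Iigp1 2.34 ± 0.41. Igtp, for example, stood at 249.2, 249, 269.1 and 178.8 CPM against 74.8, 64.4, 68.4 and 56.9 CPM. Irf1, an early target of interferon gamma, was past the rule in the young choroid plexus alone, at 294.3 against 76.8 CPM, with ratios of 0.50, 0.31 and 0.57 in the young meninges, aged meninges and aged choroid plexus.

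Cxcl10, a chemokine that draws Cxcr3-bearing T cells, was carried by few cells. It had 1 UMI in 1 interferon-responding cell of the young meninges, 39 UMIs in 3 cells of the young choroid plexus, 128 UMIs in 22 cells of the aged meninges and 13 UMIs in 5 cells of the aged choroid plexus. The levels were 7.33 (0.186 to 40.8), 294.3 (209.3 to 402.3), 374.4 (312.4 to 445.2) and 72.6 CPM (38.7 to 124.2). The young choroid plexus value thus rested on 3 cells. Its relative Cxcl9 had no UMI in any interferon-responding cell.

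Genes for presentation on MHC class I, also inducible by interferon, were higher by small ratios. Their sum was 10743.5, 10224.2, 14050 and 12213 CPM against 7837.2, 7304.7, 10671.7 and 9637.4 CPM, with no overlap of intervals in any library. Of 14 measured genes, 0 were past the rule in 3 libraries, with 4, 1, 1 and 0 past it in the single libraries, and the median log2 ratio was 0.54. The highest were H2-T22 (0.99 ± 0.29), Tap1, a subunit of the peptide transporter (0.95 ± 0.22), and Psmb10, an immunoproteasome subunit (0.95 ± 0.27). B2m, the light chain, was already abundant, at 1788.1, 1758.1, 2489.4 and 2564.4 CPM against 1527.8, 1595.7, 2119.9 and 2049.2 CPM.

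Promoters of the genes that were higher carried the ISRE core often. It was found in 33 of the 50 genes with a promoter in the table (66%), in 23 of 44 genes of the 4 interferon-stimulated lists (52.3%) and in 13 of 15 genes of the list leaning towards interferon gamma (86.7%), against 9.76% of all genes. The GAS motif, searched as TTCNNNGAA, which reads the same on both strands, was found in 8 of the 15 genes of the latter list (53.3%) and in 10 of the 50 higher genes (20%), against 9.55% of all genes. The ISRE core was also in 4 of 12 antigen-processing genes (33.3%), in 3 of 15 effector memory genes (20%) and in 0 of 11 naive genes with a promoter in the table. The shares of all genes cover the whole promoter table, including genes not measured in these cells, and no share was taken over the measured genes. The higher genes also came from the contrast in which the cells were chosen, so their share describes them and supports nothing. A match is a run of letters and not evidence of binding.

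Type I and type III interferon genes were not detected. In all T cells of the 4 libraries together, no UMI of Ifnb1, of the 13 Ifna genes and Ifnab, or of Ifne, Ifnk, Ifnl2 and Ifnl3 was found. Ifng had 74, 21, 368 and 106 UMIs in T cells, of which interferon-responding cells held 3, 4, 25 and 9. That gave 22, 30.2, 73.1 and 50.3 CPM, against 20.6, 8.43, 99.4 and 27.7 CPM in other T cells. Of the receptors and kinases, 4 of 9 were measured and 0 were past the rule, with a median log2 ratio of 0.10. Ifnar2 stood at 124.6, 113.2, 87.8 and 122.9 CPM against 83.8, 68.4, 109.2 and 113.7 CPM, and Ifngr1 at 278.5, 181.1, 544.1 and 419 CPM against 274.1, 173, 480.1 and 414.9 CPM. Ifngr2, of the same receptor as Ifngr1, was lower in each library, at 7.33, 15.1, 2.93 and 5.59 CPM against 61.5, 27.3, 10.1 and 9.14 CPM. Its levels in interferon-responding cells rested on 1, 2, 1 and 1 UMIs, below the minimum. Ifnlr1, the receptor for type III interferon, had no UMI. At the depth of the interferon-responding cells a gene without a UMI could stand at up to 27, 27.8, 10.8 and 20.6 CPM (upper Poisson limits). At the depth of the other T cells the limits were 1.07, 1.83, 1.07 and 1.05 CPM. Of 7 brakes on the response 4 were measured and 1, Usp18, was higher, and Socs1, an inhibitor of the Jak kinases, stood at 161.2, 143.4, 310.1 and 262.6 CPM against 68.5, 89.2, 131.3 and 210.6 CPM.

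CD8 cells carried lower interferon-stimulated levels than CD4 cells. The summed level of the 4 lists was 25111.6, 24192.5, 23518.1 and 23148 CPM in CD4 interferon-responding cells and 12633.8, 13769.5, 16848.8 and 11951.7 CPM in CD8 ones. The intervals did not overlap in any library, although the CD4 groups were as small as 9, 3, 29 and 8 cells. The same order held in other T cells, at 5020.7, 5014.2, 7106.2 and 5879.1 CPM in CD4 against 3435.8, 3618.8, 4562.2 and 4146.5 CPM in CD8 cells. Ly6a, a surface antigen induced by interferon, and Ifi27l2a made up much of the gap. Without them the CD4 levels of interferon-responding cells were 15819.6, 17000.1, 13882.8 and 13995.5 CPM and the CD8 levels 9332.1, 10300.5, 11518.2 and 8897.9 CPM. In other T cells the CD4 levels without them were 2910.6, 3036.4, 3381.9 and 2904.7 CPM. The CD8 levels there were 2543, 2507, 3025 and 2764.9 CPM, with overlapping intervals in the aged choroid plexus. Ly6a alone stood at 2198.1 CPM in CD4 and 301.5 CPM in CD8 interferon-responding cells of the young meninges, and at 2835.1 and 1611.2 CPM in those of the aged meninges.

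The naive and effector memory programmes differed between libraries more than between interferon-responding and other T cells. A list of 13 naive genes summed to 3056, 3470.9, 766.4 and 927.4 CPM in interferon-responding cells, against 4462.1, 3871.5, 1294 and 907.2 CPM in other T cells. They were lower, with no overlap of intervals, in the young and the aged meninges. A list of 20 effector memory genes summed to 7013.3, 7937.9, 13178.3 and 13777.4 CPM against 4150.8, 4642.3, 13868 and 13975.5 CPM. In the young libraries it was thus higher in interferon-responding cells, and in the aged libraries it was slightly lower or overlapped. Over the 4 libraries 0 of 10 measured naive and 0 of 15 measured effector genes were past the rule, with medians of -0.36 and 0.27. Ccl5, a chemokine of memory and cytotoxic T cells, gave the largest part of the effector sum, at 3085.3 and 3176.7 CPM against 1433.2 and 1556.5 CPM in the young libraries. By class, young CD8 cells and young cells with neither had higher Ccl5 levels among interferon-responding cells. Young CD4 cells had lower ones, at 399.7 against 944.3 CPM in the meninges and 0 against 527.4 CPM in the choroid plexus. In the young choroid plexus the intervals overlapped in each class. Ccl4, a chemokine induced by receptor stimulation, was at 14.7, 7.55, 196 and 39.1 CPM against 146.2, 18.8, 591.7 and 87.1 CPM, and was past the rule as lower in the young and aged meninges. Gzmb, a granzyme of killer cells, was past the rule as higher in both aged libraries, at 201.8 and 217.9 against 59.1 and 70.3 CPM. In the young libraries it did not reach the minimum of 10 UMIs. It stood there at 66 CPM (30.2 to 125.2, 9 UMIs) against 18 CPM (13.8 to 23.1) in the meninges. In the young choroid plexus it was at 22.6 CPM (3 UMIs) against 28.8 CPM.

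**Figure D5:**
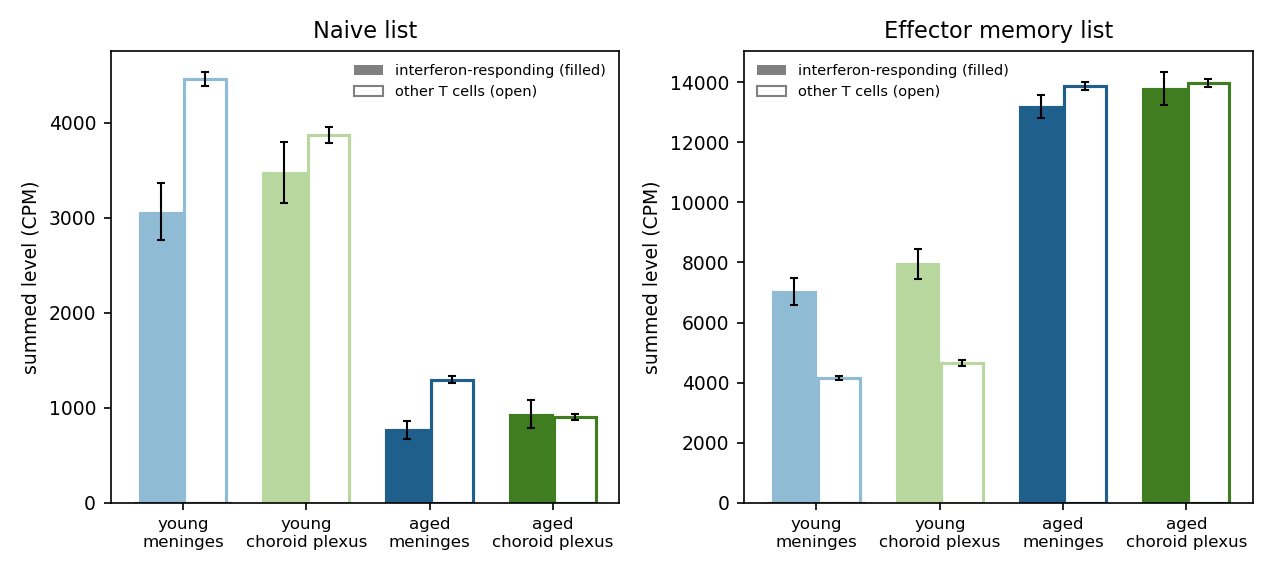
Summed level (CPM, y axes) of 13 naive genes (left) and 20 effector memory genes (right) in interferon-responding cells (filled bars) and other T cells (open bars) of each library (x axis), with 95% Poisson intervals. The effector sum was 7013.3 against 4150.8 CPM in the young meninges and 13178.3 against 13868 CPM in the aged meninges.

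Within the classes the effector sum was compared again. In CD8 cells it was 8864.8 against 6119 CPM in the young meninges and 11367.9 against 8320.9 CPM in the young choroid plexus, and in cells with neither it was 5710.9 against 2898.2 and 4918.3 against 2832.8 CPM. In CD4 cells it was 4662.6 against 4140.4 CPM in the young meninges, where the intervals overlapped. In the 3 CD4 cells of the young choroid plexus it was lower, at 784.6 against 2856.8 CPM. In aged CD8 cells it was lower in interferon-responding cells, at 18639.9 against 24152.8 CPM in the meninges and 17740.8 against 19527.4 CPM in the choroid plexus. In the aged meninges the intervals overlapped in CD4 cells, at 9520.2 against 9730.1 CPM, and in cells with neither, at 10638.4 against 11059.3 CPM. In cells with neither of the aged choroid plexus it was lower, at 7501.9 against 9083.6 CPM. In aged CD4 cells of the choroid plexus it was 4227.4 against 8272.5 CPM, with naive genes at 1970 against 963 CPM, from 8 interferon-responding cells.

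Markers of other cell types were then summed. Of 9 macrophage and monocyte genes 8, 8, 4 and 8 had no UMI in the interferon-responding cells, the sum was 22, 7.55, 58.5 and 22.3 CPM against 12.5, 96.7, 44 and 74 CPM, and Cybb was the most abundant. In the aged meninges Cybb was past the rule as higher, at 43.9 against 16.5 CPM, and 11.9% of the interferon-responding cells had a UMI of this list against 5.7% of other T cells. Without the cells that had a B-cell or myeloid UMI, which kept 13, 9, 77 and 31 interferon-responding cells, 37 genes were higher than in other T cells and the median of the interferon-stimulated lists was 1.89. Neutrophil genes were all at 0. Of the 5 B-cell genes 3, 3, 2 and 3 were at 0, and the sum of 197.9, 309.4, 117 and 117.3 CPM (against 239, 204.7, 161.7 and 139.1 CPM) was mostly Ighm. Haemoglobin genes, a sign of free RNA, were at 7.33, 0, 55.6 and 5.59 CPM against 221.9, 1.49, 371.5 and 1.43 CPM. Early response genes led by Junb summed to 1546.3, 415, 3109.6 and 363.2 CPM against 2293, 250.3, 3274.5 and 460.9 CPM, and were thus high in both meninges libraries whatever the rule. The part of this difference between tissues in other results was not tested.

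Aged and young interferon-responding cells were then compared within each tissue, without a test. In the meninges 77 of 2147 genes were past the rule as higher (3.59%) and 38 as lower (1.77%) in aged cells. In the choroid plexus 33 of 2189 were higher (1.51%) and 30 lower (1.37%). In the other T cells, which have many more UMIs, the numbers were 212 (2.1%) and 78 (0.772%) of 10107 genes in the meninges and 209 (2.22%) and 82 (0.872%) of 9407 in the choroid plexus. In interferon-responding cells, fewer genes were higher in both tissues without cells with B-cell or myeloid UMIs and with at least 4 rule genes. Those counts are given with the processing alternatives below. Few single interferon-stimulated genes were past the rule. Of 45 measured for the meninges and 43 for the choroid plexus, 1 was higher in each, Ifi208 (log2 ratios of 1.37 and 1.58), and the medians were 0.20 and 0.11. In the choroid plexus the median turned to -0.48 with at least 4 rule genes and to -0.54 without cells with B-cell or myeloid UMIs. The summed effector list, led by Ifi27l2a, stood at 15998.2 CPM (15577 to 16428) in aged against 12546.3 CPM (11958.9 to 13155) in young meningeal cells, and at 10637.5 (10165 to 11126.3) against 10284.5 CPM (9745.7 to 10845.4) in those of the choroid plexus, where the intervals overlapped. In other T cells it was 5140.6 against 3526.3 CPM in the meninges and 4142.4 against 3708.9 CPM in the choroid plexus. Ly6a alone differed by more than the whole sum in the choroid plexus, at 1625.8 against 973.4 CPM in interferon-responding and 958.3 against 372.3 CPM in other T cells, and Ifi27l2a was at 2977.8 against 3116.3 and 1206 against 1292.8 CPM there.

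Naive genes were lower in aged cells of both tissues. Of 10 measured in the meninges 9 were lower in aged interferon-responding cells, and of 12 in the choroid plexus 10, with median log2 ratios of -1.91 and -2.11. In other T cells the medians were -1.41 and -1.97. Ccr7, the receptor that guides naive cells to lymph nodes, was at 17.6 against 483.7 CPM in the meninges and at 39.1 against 279.2 CPM in the choroid plexus. Igfbp4, Dapl1, Lef1, Klf2 and Satb1 of this list were lower past the rule in both tissues, as were Cmah, Rasgrp2 and Nsg2 outside it.

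Fgl2, Tnfrsf4, Tigit, Gzmb and Ikzf2 were past the rule as higher with age in both tissues. Fgl2, a secreted immunoregulatory protein, was at 196 against 22 CPM (4.53 to 64.3) in the meninges and at 206.7 against 15.1 CPM (1.83 to 54.5) in the choroid plexus. Its log2 ratios of 2.69 and 3.11 stood beside 1.40 and 1.30 in other T cells, and no test of that gap was run. Tnfrsf4 (OX40), a costimulatory receptor, was at 242.8 against 14.7 CPM (1.78 to 52.9) and at 134.1 against 22.6 CPM (4.67 to 66.2). Tigit, an inhibitory receptor, was at 108.2 against 7.33 CPM (0.186 to 40.8) and at 95 against 7.55 CPM (0.191 to 42). The young values of these 3 genes rested on 1 to 3 UMIs each. Ikzf2 (Helios), a factor of regulatory and activated T cells, had log2 ratios of 2.14 and 2.10, and Gzmb of 1.48 and 2.80. Their young values also rested on few UMIs, 4 and 4 for Ikzf2 and 9 and 3 for Gzmb. Cish, an inhibitor of cytokine signalling, Cklf, Pura and Rbl2 were past the rule in the meninges, with ratios of 2.47, 2.77, 2.19 and 2.36 that rested on 1 to 3 young UMIs. In the choroid plexus their ratios had the same sign, at 1.23, 1.39, 1.81 and 1.48, but the intervals overlapped. CAAA01147332.1 had 28 UMIs in aged and 0 in young meningeal cells. Of 11 early response genes 7 were measured in meningeal interferon-responding cells, and 4 were higher with age, with a median of 1.01. For 3 of the 7 the minimum of UMIs was reached only through the aged cells. In other meningeal T cells 1 of 11 was higher, with a median of 0.48. In interferon-responding cells of the choroid plexus 0 of 2 measured were past the rule. Of 15 measured effector genes 5 were higher for the meninges and 3 for the choroid plexus, with medians of 0.83 and 0.53 beside 1.29 and 1.14 in other T cells. For 3 of the 15 genes in each tissue the minimum of UMIs was reached only through the aged cells, which favours genes higher in them. The meningeal median was lower with at least 4 rule genes.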

How the data were processed

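The deposited files hold UMI counts per gene and cell, as 1 matrix for each library. The authors made these counts from 10x 5′ libraries with Cell Ranger. The matrix headers name version 3.1.0 and the submitters' processing notes version 5.1.0, with STAR and mm10. The counts were not normalized by the authors. Cells with 200 to 7000 genes and at most 5% mt- UMIs were kept, which left 1035, 631, 1436 and 1106 of 1111, 718, 1695 and 1277 barcodes, from libraries of 3737140, 2295950, 4262917 and 3957717 UMIs in the order used in the report. A cell counted as a T cell if any UMI came from Cd3d, Cd3e or Cd3g. Doublets were not removed, since the rule names no such step. Scrublet marked 16, 22, 0 and 5 cells, none of them interferon-responding.

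UMIs were summed per library over interferon-responding and other T cells and scaled to CPM. Ratios had 10 CPM added. No test was run, because each group was 1 library. The cells (by their rule) and the gene lists were chosen with earlier results of these data known. Named genes were the 8 of the rule, genes of a list where the list is described, the 20 highest and 10 lowest mean ratios against other T cells (none was lower), and the 10 highest and 10 lowest between ages, leaving out receptor segments of T and B cells as well as mitochondrial and ribosomal genes. The other genes outside the lists were named to complete the 61. The split of interferon levels by class without Ifi27l2a and Ly6a was chosen after values were seen. Some genes of the lists or the naming rule are not reported here, and Mx2 was not analysed here. Gene positions are from GENCODE vM21 on GRCm38 and promoters from RefSeq on GRCm38.p6. In simulated counts for the contrast with other T cells, the rule of size called 50 of 50 genes raised by a log2 ratio of 1.5, 44 of 50 genes lowered by as much and 0 of 1778 unchanged genes. It called 0 of 50 genes raised by 0.5 and 0 of 50 lowered by 0.5. These counts followed the Poisson model that the intervals assume, without spread between cells and without a choice of cells. The low number of false calls was thus largely set in advance and says nothing about those sources of error. Only genes with at least 10 UMIs expected from the level of other T cells in every library were changed. Alternatives varied the rule, depth, doublet and cell filters, pseudocount, scaling, minimum of UMIs and libraries. Python 3.11.15 with numpy 2.4.6, scipy 1.17.1, pandas 2.3.3 and scanpy 1.11.5 was used.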

Additional observations from a re-analysis of the deposited data

Results flagged for a closer look

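The summed level of the list leaning towards interferon gamma differed in direction between tissues. It was 2022.6 CPM (1791 to 2275.9) in young and 2793.6 CPM (2619.2 to 2976.6) in aged meningeal interferon-responding cells, but 2663.6 CPM (2392.9 to 2956.4) in young and 2111.9 CPM (1904.3 to 2335.9) in aged ones of the choroid plexus. Cxcl10 made up a large part of both differences, at 374.4 against 7.33 CPM in aged against young meningeal cells (log2 ratio 4.47) and 72.6 against 294.3 CPM in those of the choroid plexus (-1.88). Its young meningeal level rested on 1 UMI and its young choroid plexus level on 3 cells. With at least 4 rule genes the median of the list in the meninges turned to -0.04. In both cases the difference between tissues was not tested, and with 1 library per group it cannot be told apart from a difference between libraries.

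Barcodes left out of the T cells also held cells past the rule. UMIs of at least 3 rule genes were found in 0 of 88 left-out barcodes of the young meninges (0 to 4.11%), 1 of 91 of the young choroid plexus (1.1%, 0.0278 to 5.97), 3 of 287 of the aged meninges (1.05%, 0.216 to 3.02) and 4 of 178 of the aged choroid plexus (2.25%, 0.616 to 5.65). These intervals overlapped one another.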

How the results depend on the processing

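The shares of interferon-responding cells depend on the rule. Asking for 2 of the 8 genes gave 7.53, 8.29, 13.8 and 8.37%, and asking for 4 gave 2.05, 1.91, 5.26 and 2.18%. Thinning to 1000 UMIs gave 0.887, 1.13, 3.94 and 1.21%, and thinning to 2000 gave 2.34 and 2.78% in the young and aged choroid plexus. Leaving single genes out of the rule lowered the share beyond its interval in the young choroid plexus (2.39% without Ifit1, 2.71% without Ifit3, 2.23% without Rtp4), the aged meninges (6.11, 5.89 and 5.97%) and the aged choroid plexus (2.64, 3.18 and 2.55%). Leaving out 1 rule gene at a time, the aged minus young difference ranged from 3.35 to 4.69 points in the meninges and from -0.166 to 0.495 in the choroid plexus. Against other T cells, the median log2 ratio of the interferon-stimulated lists was 2.05 with 1 CPM added, 1.22 with 50 CPM, 1.65 without a minimum of UMIs and 2.12 with 4 rule genes, and that of the list leaning towards interferon gamma was 1.86, 1.11 and 2.09 with 1 CPM, 50 CPM and 4 rule genes. The number of higher genes was 35 with 50 CPM added and 37 without cells with B-cell or myeloid UMIs. The number of lower genes was 1 without a minimum, 1 with other T cells weighted to the same depth and 1 with 4 rule genes. The naive median was -0.73 without cells with B-cell or myeloid UMIs and -0.79 with 4 rule genes, which gave 0.70 for antigen processing. Leaving out 1 library, and asking for 2 of the remaining 3, gave 2 to 5 lower and 70 to 83 higher genes and an interferon-stimulated median of 1.69 to 1.83. Between ages, 50 CPM gave naive medians of -1.45 for the meninges and -1.44 for the choroid plexus. Without cells with B-cell or myeloid UMIs, 32 genes were higher and 15 lower in the meninges and 6 higher in the choroid plexus, where the medians turned to -0.54 for interferon-stimulated, -1.46 for interferon gamma-leaning and -2.76 for naive genes. This kept 13, 9, 77 and 31 interferon-responding cells. With 4 rule genes, 44 genes were higher in the meninges, with medians of -0.04 for interferon gamma-leaning (turned), -1.48 for naive and 0.31 for effector genes, and 17 were higher and 17 lower in the choroid plexus, with medians of -0.48 for interferon-stimulated (turned), -1.07 for interferon gamma-leaning and -4.17 for naive genes. The causes were not tested. The direction of the interferon-stimulated genes with age in the choroid plexus thus depended on which cells were counted. Leaving out cells with Cd4 and Cd8 UMIs together was chosen after the data were seen, and gave shares of 3.18, 3.62, 7.62 and 4.32%. No paired analysis was possible because each group was 1 library.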

Other observations

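Cycling genes, which mark dividing cells, summed to 234.5 CPM (160.4 to 331.1), 233.9 (158.9 to 332), 356.9 (296.4 to 426.1) and 430.2 (339.5 to 537.7) in interferon-responding cells, against 147.1, 376.7, 230.6 and 471.7 CPM in other T cells, with no common direction over the libraries. Genes of regulatory T cells summed to 161.2, 188.6, 628.9 and 374.3 CPM against 237.9, 130.9, 729 and 513.4 CPM, and were thus higher in the aged libraries in both kinds of cell. Genes induced by tissue dissociation, led by Hspa8, summed to 1736.8, 1011.1, 1763.9 and 1184.4 CPM against 1883.4, 1061.3, 1787.2 and 1172.6 CPM.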
